A study of Mus musculus with 8 samples.

Results

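The 43 genes described here encode nucleolar proteins that make ribosomes. They were listed by name with earlier results of these data known, so the counts below are not those of an unselected list. Each gene was read from its brightest probe among those that the platform annotation ties to its symbol. A named probe was present for 37 of the 43 genes, with 54 probes in all, out of 16593 genes with a named probe in the series. Of these 37, 33 exceeded background on the 2 arrays of some group and were tested, out of 9879 genes tested in the series. Dkc1, Bysl, Wdr12 and Nop16 had a probe but were above background on 0 of 8 arrays, and Polr1b, Npm3, Utp18, Utp20, Wdr43 and Noc2l had no probe named here.

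Ribosomes are assembled in the nucleolus, where RNA polymerase I transcribes a long precursor of the ribosomal RNAs. Small nucleolar ribonucleoproteins modify this precursor: those of the box C/D class methylate riboses and those of the box H/ACA class turn uridines into pseudouridines. Assembly factors then cut and fold the RNA into the small (40S) and large (60S) subunits. Many of these genes are known targets of the growth-linked transcription factor Myc, and their expression generally follows the rate of cell growth.

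The cells were peritoneal macrophages, resident phagocytes of the abdominal cavity, of C57BL/6 mice. Interleukin-4 (IL-4), a cytokine of type 2 immunity, was given at 10 ng/ml for 6 h. There were 4 groups of 2 arrays: wild type (WT) and a line labelled Fcg-chain KO (KO), each unstimulated or stimulated with IL-4. The cells of all 8 arrays had adhered overnight in serum-containing RPMI with L929 supernatant, and non-adherent cells had been removed. This supernatant contains M-CSF, so the unstimulated cells had also been exposed to this growth factor. The labels tie no array to an animal and give no age or sex, and the series text calls them duplicates, so p-values reflect the variation among duplicates alone, possibly technical, and 2 arrays per group limit the precision. The design asks how IL-4 changes expression and whether the Fc gamma chain alters that change.

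Across genes, which are not independent replicates, r was 0.994 to 0.995 within duplicates and 0.970 to 0.988 between groups. The background threshold lay between 93.1 and 93.2 intensity units. Fcer1g encodes the common Fc receptor gamma chain and is taken as the deleted gene. It lay between 9915 and 12990 on the WT arrays and between 85.7 and 91.8 on the KO arrays, above background on 0 of the 4. All 6 macrophage markers with a probe were above background on 8 of 8 arrays, Lyz2 among them at 16830 to 18300. The deposited values have nearly the same distribution on every array, so a change in total RNA per cell would not appear in them. Less RNA per cell and fewer cells of a type cannot be told apart in such bulk samples.

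With IL-4, most of the nucleolar genes were higher in both genotypes. In WT, 25 of the 33 tested genes rose at a Benjamini-Hochberg adjusted p under 0.05 in limma, where 7.79% of all 9879 tested genes rose. In KO, 29 of 33 rose, where 9.36% of all tested genes rose. None of the 33 fell in either genotype, where 8.59% of all tested genes fell in WT and 9.85% in KO. The same 25 genes rose in both, and the median log2 change of the 33 genes was 0.56 in WT and 0.64 in KO, against -0.02 and -0.01 over all genes tested. The log2 change is the difference between group means of log2 intensity after background correction. Counted in either direction, arrays with and without IL-4 did not overlap for 30 of the 33 genes in WT and for 32 in KO. Over all genes, 55.1% in WT and 58.3% in KO did not overlap. In WT the count includes Rrs1, which was lower with IL-4 (96.2 and 96.8 without, 93.4 and 91.8 with IL-4).

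Averaged over the 33 genes, the log2 level of single arrays was 8.14 and 8.15 in unstimulated WT and 8.69 and 8.72 in WT with IL-4. In KO the averages were 8.09 and 8.02 unstimulated and 8.68 and 8.70 with IL-4. The 4 stimulated arrays thus lay above the 4 unstimulated ones in this average, while the average over all tested genes stayed between 6.85 and 6.87 on every array.

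**Figure D1:**
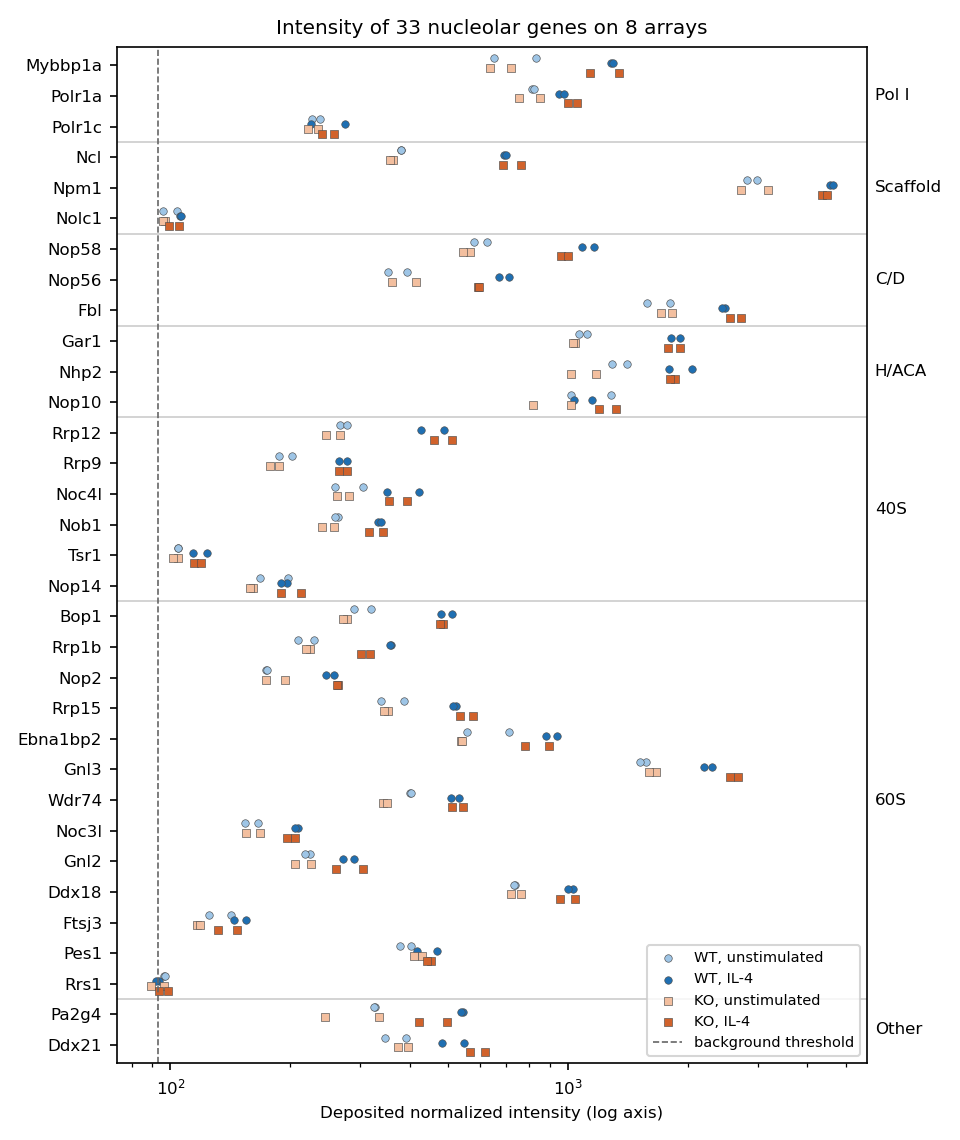
Deposited normalized intensity (log axis) of the 33 tested nucleolar genes on each of the 8 arrays, with genes ordered by role and points coloured by group. The genes span a wide range, from Npm1 at up to 4648 to genes near the background threshold, and for most of them the points of the stimulated groups lie to the right of those of the unstimulated groups.

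Among the proteins of the RNA polymerase I step, 1 of 3 tested genes rose in WT and 2 of 3 in KO. Mybbp1a, a nucleolar protein that binds the polymerase I machinery, had intensities of 650.3 and 830.0 in unstimulated WT and 1286 and 1302 with IL-4. In KO its intensities were 720.2 and 636 without and 1343 and 1136 with IL-4. All 4 stimulated arrays were above all 4 unstimulated ones, although the unstimulated WT duplicates stood well apart. The log2 change was 0.88 ± 0.13 (SE) in WT (limma adjusted p = 0.00044) and 0.94 ± 0.13 in KO (adjusted p = 0.00021). Polr1a, the largest catalytic subunit of RNA polymerase I, had 811 and 824 in unstimulated WT and 950.3 and 979 with IL-4. In KO it had 849 and 751 without and 1054 and 1003 with IL-4. The groups of this brightest probe did not overlap in either genotype. Its change passed in KO (log2 0.39 ± 0.10, limma adjusted p = 0.0115) and missed in WT (0.26 ± 0.10, adjusted p = 0.092). A further probe of Polr1a had the reverse calls, with limma p-values adjusted over all probes. It changed by 0.45 ± 0.13 in WT (limma adjusted p = 0.0267) and by 0.15 ± 0.13 in KO (0.47). The remaining probe passed in neither genotype (0.22 in WT and 0.28 in KO). Without KO with IL-4 replicate 1 the limma adjusted p of Polr1a in KO was 0.0838, without unstimulated KO replicate 2 it was 0.123, and with the mean of its probes it was 0.0876. Polr1c, a subunit shared by RNA polymerases I and III, ranged from 222 to 275 over the 8 arrays, with log2 changes of 0.14 in WT and 0.17 in KO that did not pass.

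Nucleolin showed the largest mean response of the 33 genes. Ncl encodes this abundant protein, which binds precursor rRNA and the chromatin of the rRNA genes. Its intensity was 379.7 and 381 in unstimulated WT and 689 and 700.3 with IL-4. In KO the values were 363 and 357 without and 685 and 763 with IL-4. The stimulated and unstimulated arrays were far apart, and all duplicates except those of KO with IL-4 lay close together. The log2 change was 1.00 ± 0.10 in WT (limma adjusted p = 1.6e-05) and 1.16 ± 0.10 in KO (adjusted p = 3.3e-06). Npm1, nucleophosmin, a histone chaperone and scaffold of the granular part of the nucleolus, was the brightest of the 33 genes. It had 2995 and 2826 in unstimulated WT and 4565 and 4648 with IL-4, and in KO 2732 and 3196 without and 4349 and 4494 with IL-4. Its groups did not overlap, with log2 changes of 0.67 ± 0.09 in WT (limma adjusted p = 0.00021) and 0.59 ± 0.09 in KO (adjusted p = 0.00048). Nolc1, a phosphoprotein that accompanies small nucleolar ribonucleoproteins, was dim at 95.9 to 106, and its log2 change of 0.24 in each genotype did not pass. Its mean change over both genotypes passed only without unstimulated WT replicate 2 (log2 0.33, limma adjusted p = 0.0327, against 0.0861 with all arrays).

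The 3 box C/D core proteins rose in both genotypes. Nop58, one of the paired scaffold proteins of these particles, had 626 and 582 in unstimulated WT and 1166 and 1087 with IL-4. In KO it had 569 and 546 without and 959.9 and 1002 with IL-4. The groups were separate in both genotypes, and the log2 change was 0.98 ± 0.10 in WT (limma adjusted p = 1.4e-05) and 0.90 ± 0.10 in KO (adjusted p = 2.5e-05). Nop56, its partner, had 394 and 352 in unstimulated WT, 710.2 and 673 with IL-4, and in KO 362 and 414 without and 596 and 596 with IL-4. Its log2 change of 1.03 ± 0.11 in WT (limma adjusted p = 3.6e-05) was the largest of the 33 genes in that genotype, and it was 0.72 ± 0.11 in KO (adjusted p = 0.0005). Fbl, fibrillarin, the methyltransferase of the particle, had 1808 and 1584 in unstimulated WT and 2485 and 2448 with IL-4, and in KO 1716 and 1828 without and 2559 and 2722 with IL-4. Fibrillarin thus moved less than its scaffolds on this scale, by log2 0.56 ± 0.09 in WT (limma adjusted p = 0.00103) and 0.59 ± 0.09 in KO (adjusted p = 0.00054), and the difference between these genes was not tested.

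Of the box H/ACA core, Gar1 and Nhp2 rose in both genotypes, Nop10 rose in KO alone by this call, and Dkc1, the pseudouridine synthase dyskerin, stayed between 84.7 and 89.8 and was not above background. Gar1 had 1064 and 1120.0 in unstimulated WT and 1815 and 1919 with IL-4, and in KO 1045 and 1029 without and 1789 and 1919 with IL-4. Its log2 change was 0.81 ± 0.09 in WT (limma adjusted p = 3.8e-05) and 0.88 ± 0.09 in KO (adjusted p = 1.6e-05), with no overlap. Nhp2, a protein that binds the guide RNA, had 1291 and 1410.0 in unstimulated WT and 2054 and 1792 with IL-4. In KO it had 1176 and 1021 without and 1864 and 1806 with IL-4. Here too the groups were separate, with log2 changes of 0.53 ± 0.11 in WT (limma adjusted p = 0.00347) and 0.78 ± 0.11 in KO (adjusted p = 0.00016). Nop10, the smallest core protein, had 1287 and 1016 in unstimulated WT and 1150.0 and 1034 with IL-4, which overlap, and in KO 1017 and 815 without and 1199 and 1318 with IL-4, which do not. Its log2 change was -0.07 ± 0.14 in WT and 0.50 ± 0.14 in KO (limma adjusted p = 0.0203). The Nop10 call in KO was lost without KO with IL-4 replicate 2 (limma adjusted p = 0.137), without unstimulated KO replicate 2 (0.209) and with the mean of its probes (0.145). Its mean change over both genotypes (0.21, limma adjusted p = 0.123) passed without unstimulated KO replicate 1 (0.0428) and without unstimulated WT replicate 1 (0.0396).

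For the small subunit, 5 of 6 tested genes rose in WT and 6 of 6 in KO. Rrp12, a repeat protein of the early precursor and of its export, had 267 and 278 in unstimulated WT and 489 and 426 with IL-4, and in KO 266 and 246 without and 510.2 and 459 with IL-4. The stimulated duplicates differed from each other by more than the unstimulated ones but remained far above them. Its log2 change was 0.91 ± 0.12 in WT (limma adjusted p = 0.00015) and 1.14 ± 0.12 in KO (adjusted p = 2e-05). Rrp9, a protein of the U3 particle that guides the first cuts, had 202 and 188 in unstimulated WT and 278 and 266 with IL-4, and in KO 188 and 178 without and 279 and 266 with IL-4. These groups did not overlap, and the log2 change was 0.67 ± 0.12 in WT (limma adjusted p = 0.00131) and 0.81 ± 0.12 in KO (adjusted p = 0.00024). Bysl, the mouse gene of bystin, lay between 84.6 and 90.7 and was not above background.

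The other 4 tested small-subunit genes changed less, and their calls depended on single arrays. Noc4l, which acts with Nop14 in the early precursor, changed by log2 0.56 in WT and 0.58 in KO. Its limma adjusted p in WT rose from 0.0132 to 0.15 without WT with IL-4 replicate 2 and to 0.136 without unstimulated WT replicate 1. In KO it rose from 0.00938 to 0.088 without KO with IL-4 replicate 2 and to 0.0779 without unstimulated KO replicate 1. Nob1 is the endonuclease that makes the final cut of the small subunit RNA, and it changed by 0.46 in WT and 0.52 in KO. Its further probe passed in WT alone, with limma p-values adjusted over all probes. That probe changed by 0.71 ± 0.11 in WT (limma adjusted p = 4.7e-04) and by 0.31 ± 0.11 in KO (0.0634). The WT call of Nob1 (limma adjusted p = 0.0108) was lost without WT with IL-4 replicate 2 (0.0718) or unstimulated WT replicate 2 (0.0545), and its KO call (0.00445) without KO with IL-4 replicate 2 (0.0565). Tsr1, a GTPase-like factor of late small subunits, was dim at 102 to 124. It changed by 0.45 in WT (limma adjusted p = 0.0314) and 0.46 in KO (0.0249), and its WT call was lost without unstimulated WT replicate 1 (0.116), unstimulated WT replicate 2 (0.111) or WT with IL-4 replicate 2 (0.243). Without the background correction its log2 change was 0.19 in each genotype and with an offset of 50 it was 0.26, both still past the threshold. The KO call of Tsr1 was lost without either stimulated KO array (limma adjusted p = 0.052 without replicate 1 and 0.152 without replicate 2) or either unstimulated one (0.0637 and 0.152). Nop14 had overlapping WT groups (168 and 198 without, 196 and 190.1 with IL-4; log2 0.13) and rose in KO by 0.52 (limma adjusted p = 0.0195). That KO call of Nop14 was lost without KO with IL-4 replicate 2 (limma adjusted p = 0.179), unstimulated KO replicate 1 (0.0715) or unstimulated KO replicate 2 (0.0997), and without the background correction its change was 0.33.

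For the large subunit, 10 of 13 tested genes rose in WT and 11 of 13 in KO. Bop1 and Pes1 belong to one complex that processes the large subunit RNA, and Bop1 passed in both genotypes while Pes1 passed in neither. Bop1 had 290.0 and 320.2 in unstimulated WT and 479 and 511 with IL-4, and in KO 279 and 272 without and 484 and 476 with IL-4. The groups were separate and the log2 change was 0.84 ± 0.11 in WT (limma adjusted p = 0.00012) and 0.98 ± 0.11 in KO (adjusted p = 2.8e-05). Pes1 had 378 and 402 in unstimulated WT and 418 and 469 with IL-4, and in KO 429.8 and 411 without and 453 and 443 with IL-4. Its groups did not overlap within a genotype, but its log2 changes of 0.22 ± 0.11 and 0.11 ± 0.11 did not pass (limma adjusted p = 0.201 and 0.55). Wdr12, the other protein of that complex, lay between 84.8 and 92.9 and was not above background, as did Nop16, another large-subunit factor, between 85.4 and 90.7. Whether Bop1 and Pes1 differ in response was not tested.

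Rrp1b, a nucleolar protein related to the yeast processing factor Rrp1, had 229.9 and 209 in unstimulated WT and 359 and 358 with IL-4, and in KO 225 and 219.9 without and 301 and 318 with IL-4. Its log2 change was 0.93 ± 0.11 in WT (limma adjusted p = 7.7e-05) and 0.64 ± 0.11 in KO (adjusted p = 0.00122), without overlap. Nop2, a methyltransferase of the large subunit RNA, had 174 and 175 in unstimulated WT and 258 and 247 with IL-4, and in KO 194 and 174 without and 264 and 262 with IL-4. Separate groups were again seen, and the log2 change was 0.78 ± 0.12 in WT (limma adjusted p = 0.00055) and 0.75 ± 0.12 in KO (adjusted p = 0.0006). Gnl3, nucleostemin, a nucleolar GTPase known from proliferating stem cells, had 1576 and 1521 in unstimulated WT and 2299 and 2201 with IL-4. In KO it had 1668 and 1601 without and 2564 and 2675 with IL-4. All stimulated arrays were above all unstimulated ones, with log2 changes of 0.56 ± 0.09 in WT (limma adjusted p = 0.00051) and 0.70 ± 0.09 in KO (adjusted p = 6.5e-05). Rrp15, a factor of early large subunits, went from 339 and 386 to 524 and 513 in WT and from 353 and 346 to 536 and 579 in KO. These values correspond to log2 0.61 ± 0.11 (limma adjusted p = 0.00166) and 0.79 ± 0.11 (adjusted p = 0.00019), again with no overlap.

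Of the remaining large-subunit genes, 6 rose in 1 or both genotypes with calls that single arrays could end, and Rrs1 did not pass in either. Wdr74 (log2 0.44 in WT, 0.72 in KO) lost its WT call without WT with IL-4 replicate 2, where the limma adjusted p went from 0.00802 to 0.0724. Ebna1bp2 (0.58 and 0.70) lost its WT call, which had a limma adjusted p of 0.00575, without WT with IL-4 replicate 2 (0.0533) or unstimulated WT replicate 2 (0.0655). With the mean of its probes, the WT change of Ebna1bp2 was 0.21 (limma adjusted p = 0.226) and its KO change 0.35 (0.0453). Noc3l (0.58 and 0.50), required early in large subunit assembly in yeast, lost its WT call without unstimulated WT replicate 1 (limma adjusted p = 0.0589, from 0.00552). Its KO call (0.0118) was lost without KO with IL-4 replicate 1 (limma adjusted p = 0.0802) or unstimulated KO replicate 2 (0.112). Without the background correction the change of Noc3l was 0.37 in WT and 0.32 in KO. Ddx18, an RNA helicase, changed by 0.51 in WT (limma adjusted p = 0.00214) and 0.46 in KO (0.00361), the latter lost without KO with IL-4 replicate 2 (0.0522). Gnl2, a GTPase that acts on the large subunit before export, changed by 0.47 in WT (limma adjusted p = 0.0224) and 0.53 in KO (0.00948). Its WT call was lost without any 1 of the 4 WT arrays (limma adjusted p = 0.0549 and 0.147 without WT with IL-4 replicates 1 and 2, 0.0748 and 0.104 without unstimulated WT replicates 1 and 2). Its KO call was lost without KO with IL-4 replicate 1 (limma adjusted p = 0.111) or unstimulated KO replicate 2 (0.0918). Ftsj3, an RNA methyltransferase, changed by 0.31 in WT, which did not pass, and by 0.49 in KO (limma adjusted p = 0.037). This KO call was lost without KO with IL-4 replicate 2 (limma adjusted p = 0.269), unstimulated KO replicate 1 (0.149) or unstimulated KO replicate 2 (0.112). Without the background correction the KO change of Ftsj3 was 0.24, and with an offset of 50 it was 0.32. Rrs1, which brings the 5S RNA particle into the large subunit in yeast, lay at the background threshold (89.3 to 98.4, above it on 6 of 8 arrays) and had log2 changes of -0.19 in WT and 0.16 in KO that did not pass.

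Ddx21 and Pa2g4 also rose in both genotypes. Ddx21, an RNA helicase linked to rRNA transcription and processing, had 347 and 391 in unstimulated WT and 483 and 548 with IL-4, and in KO 373 and 396 without and 566 and 620.2 with IL-4. The log2 change was 0.57 ± 0.12 in WT (limma adjusted p = 0.00431) and 0.73 ± 0.12 in KO (adjusted p = 0.00063). Its groups did not overlap, but the WT call was lost without WT with IL-4 replicate 2 (limma adjusted p = 0.0586) or unstimulated WT replicate 1 (0.0519). Pa2g4, a growth-regulated protein found on nucleolar precursors and ribosomes, had 328 and 325 in unstimulated WT and 545 and 537 with IL-4, and in KO 335 and 245 without and 496 and 422 with IL-4. The KO duplicates were far apart in both conditions, while the WT duplicates were close, and no stimulated array reached down to the unstimulated range. The log2 change was 0.87 ± 0.16 in WT (limma adjusted p = 0.00209) and 0.84 ± 0.16 in KO (adjusted p = 0.00227). Without unstimulated KO replicate 2, the lower of its pair, the KO change of Pa2g4 was 0.54 (limma adjusted p = 0.0256).

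**Figure D2:**
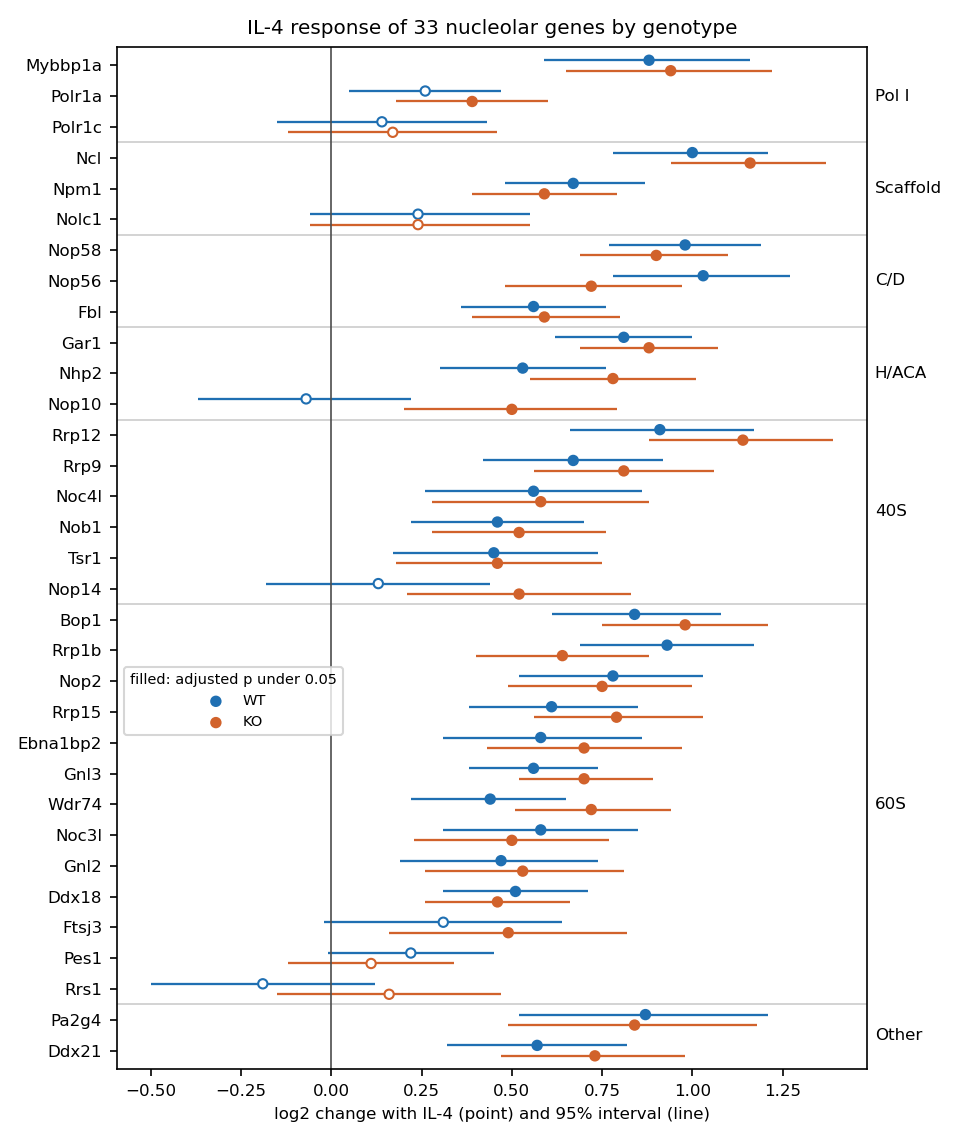
Log2 change with IL-4 in WT and in KO for each of the 33 tested genes, with 95% confidence intervals from the limma fit. Most intervals lie to the right of 0, and Rrs1, Polr1c, Nolc1 and Pes1 have intervals that hold 0 in both genotypes.

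Of the genes that rose, 17 of 25 in WT and 19 of 29 in KO kept their call under all 18 alternative settings, and 16 kept it in both genotypes. These 16 were Bop1, Fbl, Gar1, Gnl3, Mybbp1a, Ncl, Nhp2, Nop2, Nop56, Nop58, Npm1, Pa2g4, Rrp12, Rrp15, Rrp1b and Rrp9. Averaged over both genotypes, 28 of the 33 genes rose and 0 fell, where 13.4% of all tested genes rose and 15.6% fell, with a median log2 change of 0.63 against -0.02 for all genes. The 3 genes nearest 0 in this average were Rrs1 (-0.02), Polr1c (0.15) and Pes1 (0.16). Ftsj3 and Nop14 passed in this average with all arrays and lost the call without single arrays, and without the background correction their averages were 0.20 and 0.21. For Nop14 (log2 0.33, limma adjusted p = 0.0257) these were unstimulated WT replicate 1 (0.111), WT with IL-4 replicate 1 (0.0738), unstimulated KO replicates 1 and 2 (0.053 and 0.0705) and KO with IL-4 replicate 2 (0.11). For Ftsj3 (log2 0.40, limma adjusted p = 0.0122) they were WT with IL-4 replicate 2 (0.0513), unstimulated WT replicate 2 (0.0605) and KO with IL-4 replicate 2 (0.0561). Across the 33 genes the level and the mean change had Pearson r = 0.37 and Spearman rho = 0.33, given as a description, since all genes share the same arrays and low intensities compress a change.

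Several of these genes were measured by more than 1 probe. For 12 genes there were 17 further probes above background, and 17 of 17 had a positive mean log2 change with IL-4. Of these, 13 passed upward and 0 downward, with limma p-values adjusted over all probes. The share of all probes that rose or passed is not given here, so these counts stand without a comparison. The second probe of Ncl changed by 1.03 ± 0.09 (limma adjusted p = 2.4e-06), close to the 1.08 of the brightest one. The second probe of Gnl3, far dimmer at a mean intensity of 147, changed by 0.80 ± 0.09 (limma adjusted p = 1.5e-05), against 0.63 for the brightest. The 2 further probes of Ebna1bp2, at mean intensities of 101 and 107, changed by 0.12 and 0.08 and did not pass (limma adjusted p = 0.456 and 0.591), whereas its brightest probe changed by 0.64. The other further probes that did not pass were the second one of Nop10 (0.15, limma adjusted p = 0.366) and 1 of the 2 further ones of Polr1a (0.25, 0.0674).

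**Figure D3:**
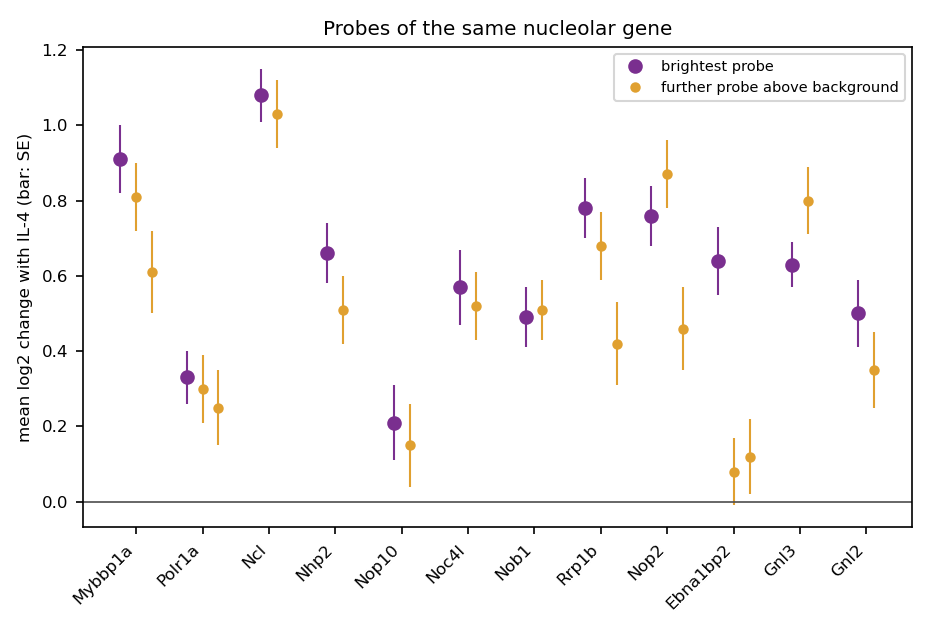
Mean log2 change with IL-4 over both genotypes for every probe above background of the 12 genes with several such probes. All probes lie above 0, and the probes of Ebna1bp2 differ most, with 0.64 for the brightest against 0.12 and 0.08.

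KO and WT did not differ at the threshold for any nucleolar gene. In unstimulated cells 0 of 33 genes passed in either direction, where 5.23% of all tested genes did. An unadjusted limma p under 0.05 was seen for 1602 of all 9879 genes and for 4 of the 33. These 4 were Nhp2 (log2 -0.32 ± 0.11, limma adjusted p = 0.121), Ftsj3 (-0.37, 0.232), Nop10 (-0.35, 0.204) and Wdr74 (-0.26, 0.2), all lower in KO. Unstimulated Nhp2 read 1291 and 1410.0 in WT against 1176 and 1021 in KO, without overlap. With IL-4, 0 of 33 passed, where 5.06% of all genes did. Unadjusted limma p-values were under 0.05 for 1647 of all 9879 genes and, of the 33, for Gnl3, Nop58 and Rrp1b. Stimulated Gnl3 was higher in KO by log2 0.23 ± 0.09 (limma adjusted p = 0.183), and Nop58 and Rrp1b were lower by values of -0.21 and -0.26. Over both conditions 0 of 33 passed, where 10.1% of all tested genes did, with a median log2 difference of -0.05 against 0.01 for all genes. An unadjusted limma p under 0.05 was seen for 2155 of all 9879 genes and for 5 of the 33 (lowest limma adjusted p 0.134, Ftsj3). Without unstimulated KO replicate 1, Pa2g4 passed as lower in KO (log2 -0.41, limma adjusted p = 0.0136), against -0.26 (0.187) with all arrays.

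The IL-4 response itself did not differ between the genotypes at the threshold for any of the 33 genes, where 0.121% of all tested genes (12) did. The median difference, KO minus WT, was log2 0.06. The 95% intervals of the single differences, not adjusted for the number of genes, had half-widths of 0.26 to 0.49 with a median of 0.35. Differences of that size were thus not detectable in single genes, and with adjustment over 9879 genes larger ones could be missed too. All 33 intervals lay within 1 log2 unit of 0. Nop10 had the largest difference, 0.57 ± 0.19 with an interval from 0.15 to 0.98 and a limma adjusted p of 0.628. It was the 1 gene of 33 whose unadjusted limma p was under 0.05, where 651 of all 9879 genes had such a p. Ftsj3, Nop10, Nop14 and Polr1a passed in KO and not in WT by their brightest probes, while a further probe of Polr1a passed in WT and not in KO. The tests of the difference do not show that the responses of these genes differ. The WT and KO responses share no arrays, and over the 33 genes they had Pearson r = 0.82 and Spearman rho = 0.83, compared with 0.83 and 0.67 over all genes, as a description over genes that share arrays.

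**Figure D4:**
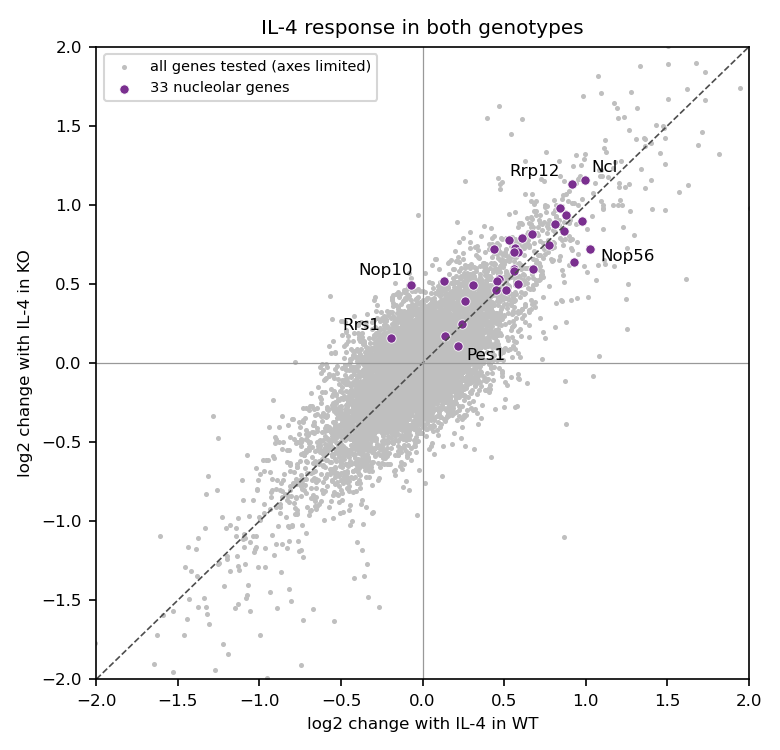
Log2 change with IL-4 in KO (vertical axis) against that in WT (horizontal axis), 1 point per tested nucleolar gene, with the line of equal change. The points scatter along the line, and Nop10 lies farthest above it, at -0.07 in WT and 0.50 in KO.

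Genes of neighbouring processes were counted in the same fit for the mean response over both genotypes. Of 34 further small-subunit factors tested, 21 rose and 0 fell (median log2 change 0.32), and of 30 further large-subunit factors 18 rose and 0 fell (0.31). Among them were Wdr46 (log2 1.16 ± 0.08, limma adjusted p = 1e-07) and Rcl1 (0.98 ± 0.07, 3.2e-07), both proteins of the small-subunit precursor, and Rsl1d1 (0.70 ± 0.07, 5.5e-06) and Mrto4 (0.72 ± 0.07, 6e-06) of the large subunit. Of 13 further genes of RNA polymerase I and its factors, 7 rose (median 0.27). Of 15 cytosolic ribosomal protein genes 3 rose (20%), Rpl4, Rps6 and Rplp0, with a median of 0.08. These shares stand beside the 13.4% of all genes that rose, and no test compares the lists.

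Enzymes of nucleotide, polyamine and one-carbon synthesis were also higher, with 14 of 19 genes up and 1 down (median 0.71). Examples are Prps1 (log2 1.26 ± 0.10, limma adjusted p = 8.2e-07), which makes the ribose precursor of nucleotides, Ctps (0.95 ± 0.08, 7.5e-07), which makes CTP, and Srm (0.87 ± 0.07, 5.1e-07) and Odc1 (0.76 ± 0.06, 9.2e-07) of polyamine synthesis. Mthfd2 was the gene that fell (-0.27, limma adjusted p = 0.0266). Of 16 cell cycle and replication genes 9 rose and 1 fell (median 0.31), Mcm2 (0.85 ± 0.08, limma adjusted p = 5.7e-06) and Mcm6 (0.82 ± 0.10, 2.4e-05) of the replicative helicase among them. Of 11 cytosolic translation factors 4 rose and 1 fell (median 0.19), and the one that fell was Eif4ebp1, a translation inhibitor (-0.64 ± 0.06, limma adjusted p = 6.2e-06).

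Of 7 tested genes of the Myc network 1 rose, Myc itself, a share of 14.3% beside the 13.4% of all genes. Its intensity was low, 98.2 and 109 in unstimulated WT, 134 and 134 with IL-4, 103 and 107 in unstimulated KO and 131 and 132 with IL-4. The stimulated arrays were all above the unstimulated ones, and the log2 change was 0.86 ± 0.15 in WT (limma adjusted p = 0.00114) and 0.75 ± 0.15 in KO (adjusted p = 0.0026). These intensities lie near the background threshold, so the size of the log2 change depends on the background correction and its offset.

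**Figure D5:**
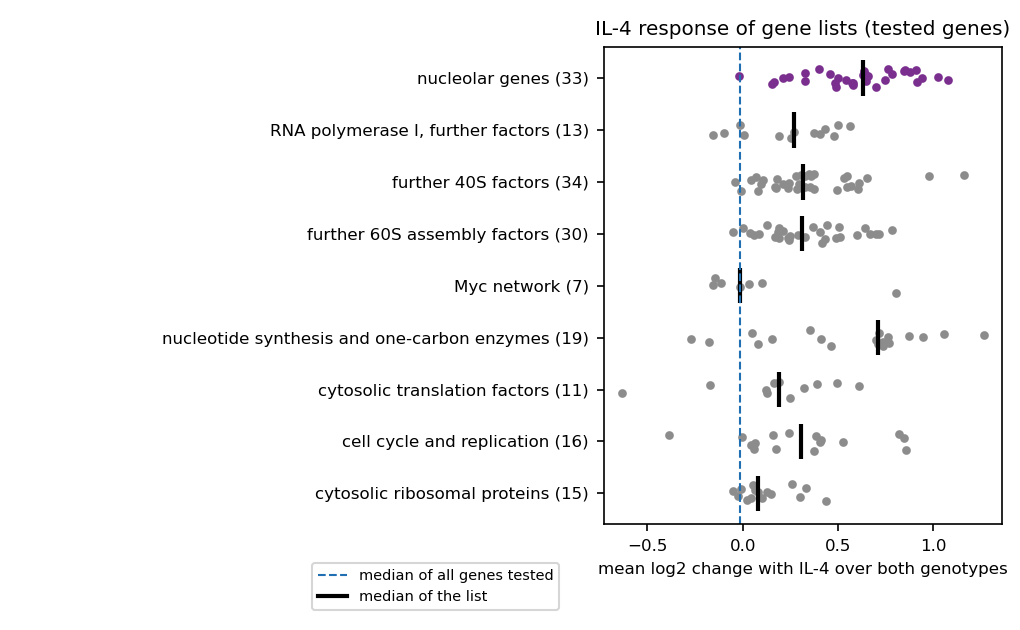
Mean log2 change with IL-4 over both genotypes for each tested gene of the nucleolar group and of 8 other lists, with the number of genes tested in parentheses, a bar at each list's median and a dashed line at the median of all genes. The medians run from 0.71 for nucleotide and one-carbon enzymes and 0.63 for the nucleolar genes to 0.08 for ribosomal proteins and -0.02 for the Myc network.

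The mean genotype difference over both conditions passed for few of these neighbours, where 10.1% of all tested genes passed. Lower in KO were 1 of 30 further large-subunit factors, Eif6, which keeps the subunits apart (log2 -0.34, limma adjusted p = 0.00276), and 1 of 11 translation factors, Eif5a (-0.26, 0.016). Also lower were 1 of 13 genes of RNA polymerase I, Cd3eap (-0.27, limma adjusted p = 0.0328), and 1 of 19 nucleotide and one-carbon enzymes, Mthfd2 (-0.46, 0.00278). Of 16 cell cycle genes 3 were higher in KO, Mcm6 (0.50, limma adjusted p = 0.00369), Ccnd1 (0.52, 0.012) and Mcm4 (0.26, 0.0243), and 1 was lower, Tk1 (-0.51, 0.00655). None passed among 34 further small-subunit factors, 15 ribosomal proteins and 7 genes of the Myc network, and no test compares these lists with the nucleolar genes.

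Some markers of other cells moved with IL-4 alongside the nucleolar genes, and others did not. For the neutrophil list, 5 of 6 genes had a probe and 4 were above background on both arrays of a group. Its summed intensity was 2320 to 2595 in unstimulated WT and 1307 to 1449 with IL-4, and 1673 to 1800.0 in unstimulated KO and 1195 to 1418 with IL-4. Most of that sum was S100a8 (830.3 to 2181), while Elane, Camp, Retnlg and Mpo lay between 83.5 and 128.5, at or near background. Of the 4 tested genes of this list, 3 fell in WT and 1 in KO, where 8.59% and 9.85% of all tested genes fell. In the small peritoneal macrophage and dendritic cell list, 2 of 5 genes were above background, and Ccr2 and Flt3 were below it on all arrays. The list summed to 935 to 1007 without and 732 to 831 with IL-4 in WT. In KO it summed to 716 to 718 without and 667 to 683 with IL-4. Its 2 tested genes went opposite ways, with 1 higher and 1 lower past the threshold in each genotype. Their log2 changes were 0.79 and -0.98 in WT and 0.73 and -0.61 in KO. B cell markers summed to 1395 to 2302 over the 4 groups, with overlap between stimulated and unstimulated arrays. No gene of the B cell, T and NK cell, mast cell and eosinophil, or mesothelial and fibroblast lists passed in the mean IL-4 response. In the mean genotype difference, 3 of 4 tested T and NK cell genes were higher in KO. Lower in KO were 2 of 3 mast cell and eosinophil genes, 2 of 4 neutrophil genes and 1 of 2 small peritoneal macrophage and dendritic cell genes. No B cell or mesothelial and fibroblast gene passed there, where 10.1% of all tested genes did. The part of other cells in the nucleolar changes was not tested. Markers of large peritoneal macrophages summed to 5227 to 5897 in unstimulated WT and to 10350 to 10900 in unstimulated KO, beside which no nucleolar gene passed between the genotypes. The brightest of these 6 markers was Vsig4 (2366 to 8006 over the 8 arrays), and in unstimulated KO 4 of the 6 had a positive and 2 a negative log2 difference, the lowest -0.52, with 3 past the threshold, all higher.

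Promoter windows from RefSeq (GRCm38.p6), 300 bases each with 250 before and 50 after a gene's start, were available for 37 of the 43 genes, in 41 windows. They were searched on both strands for 6 motifs, with the share of all 27025 genes with a window as the comparison. The E-box CACGTG, the core bound by Myc and related factors, was in the windows of 7 of 37 genes (18.9%), against 8.09% of all genes. These were Mybbp1a, Nop2, Pes1, Tsr1, Utp18, Utp20 and Wdr43, and of the 23 genes with a window that rose on average over both genotypes 3 had it. The related CACGCG was in 10 genes (27.0% against 10.5%), and the ETS-type CCGGAAG in 12 (32.4% against 9.93%). Of the same 23 rising genes with a window, 3 had CACGCG and 8 had CCGGAAG. The STAT-type motif of TTC and GAA with 4 bases between them, the spacing preferred by the IL-4-activated factor STAT6, was in 5 genes (13.5% against 8.01%). Bysl, Dkc1 and Nop16, which were not above background, are among these 5. The motif with 3 bases between TTC and GAA was in 4 genes (10.8% against 9.55%). Of the 23 rising genes with a window, 2 had the motif with 4 bases between and 3 that with 3. The TATA motif TATAAA was in 2 genes (5.41% against 15.7%), and in 0 of the 23 rising ones. Member windows had a median GC content of 59.3%, against 52.7% for all windows, and GC-rich motifs were not compared at matched GC. A match is a string of letters and not a known binding site. Each motif was searched on its own, so matches of 2 motifs may overlap.

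The windows below show how the E-box stands in the 4 measured genes that have it. Ncl and Nop58 are shown because they were among the 3 genes with the largest mean response, so they are no comparison group for the motif. Each is written 5′ to 3′ on the gene's strand, and capitals mark CACGTG. Mybbp1a (chr11:72441077-72441376, plus strand), Nop2 (chr6:125131633-125131932, plus), Pes1 (chr11:3963725-3964024, plus) and Tsr1 (chr11:74897830-74898129, plus) each hold 1 match, at 40 bases after, 60 before, 2 after and 24 after the start. Ncl (chr1:86359406-86359705, minus) and Nop58 (chr1:59684756-59685055, plus) hold none.
Mybbp1a: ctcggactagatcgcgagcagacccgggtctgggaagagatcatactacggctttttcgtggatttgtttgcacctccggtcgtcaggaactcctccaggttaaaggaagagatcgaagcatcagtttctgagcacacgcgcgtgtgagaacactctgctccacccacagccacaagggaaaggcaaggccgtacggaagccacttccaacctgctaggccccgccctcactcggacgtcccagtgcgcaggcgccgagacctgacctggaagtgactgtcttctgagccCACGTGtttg
Nop2: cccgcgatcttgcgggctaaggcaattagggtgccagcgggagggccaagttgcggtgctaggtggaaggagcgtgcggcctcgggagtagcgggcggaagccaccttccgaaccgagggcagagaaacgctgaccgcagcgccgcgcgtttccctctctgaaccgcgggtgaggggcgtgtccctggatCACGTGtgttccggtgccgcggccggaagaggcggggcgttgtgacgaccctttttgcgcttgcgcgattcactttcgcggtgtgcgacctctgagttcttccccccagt
Pes1: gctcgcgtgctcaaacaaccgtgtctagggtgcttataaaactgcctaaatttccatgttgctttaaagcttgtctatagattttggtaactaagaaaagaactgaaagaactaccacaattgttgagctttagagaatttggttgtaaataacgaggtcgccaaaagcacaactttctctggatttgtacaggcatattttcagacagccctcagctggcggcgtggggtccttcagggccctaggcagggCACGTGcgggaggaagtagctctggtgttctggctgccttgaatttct
Tsr1: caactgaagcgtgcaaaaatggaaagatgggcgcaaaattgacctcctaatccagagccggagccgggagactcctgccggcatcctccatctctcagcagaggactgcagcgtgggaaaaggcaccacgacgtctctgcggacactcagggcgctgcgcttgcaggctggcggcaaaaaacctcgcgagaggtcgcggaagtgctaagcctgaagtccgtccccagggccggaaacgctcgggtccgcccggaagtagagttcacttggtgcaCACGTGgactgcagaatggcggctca
Ncl: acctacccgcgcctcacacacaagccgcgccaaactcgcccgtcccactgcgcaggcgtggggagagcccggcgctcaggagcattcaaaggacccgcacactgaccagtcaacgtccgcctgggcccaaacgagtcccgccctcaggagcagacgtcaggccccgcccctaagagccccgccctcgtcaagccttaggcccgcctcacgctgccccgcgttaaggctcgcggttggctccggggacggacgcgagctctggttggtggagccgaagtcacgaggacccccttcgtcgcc
Nop58: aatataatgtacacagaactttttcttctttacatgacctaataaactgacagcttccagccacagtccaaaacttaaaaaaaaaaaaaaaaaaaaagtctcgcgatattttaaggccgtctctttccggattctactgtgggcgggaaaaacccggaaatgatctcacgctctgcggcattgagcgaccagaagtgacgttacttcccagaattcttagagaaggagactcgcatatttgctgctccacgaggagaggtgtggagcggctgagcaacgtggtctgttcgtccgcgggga
The mean log2 change with IL-4 of the 4 genes shown with the E-box was 0.91 for Mybbp1a, 0.76 for Nop2, 0.46 for Tsr1 and 0.16 for Pes1, of which the last did not pass. Whether the motif goes with the response was not tested.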

How the data were processed

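Total RNA was labelled as biotinylated cRNA and hybridised to Illumina Mouse Ref-8 arrays, per the labels. The authors deposited normalized intensity values on a linear scale, and GenomeStudio is named, without a version, in the submitters' processing notes. From the values, the sorted columns differ by at most 0.57, so the deposited intensities are read as quantile-normalized, and background had not been subtracted. Another 8 signal columns (16 with detection p-values) match no label and were not used.

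Background was corrected with normexp (saddle, offset 16) and values were taken to log2. A probe was above background on an array when it exceeded the mode of the low values plus 1.645 times the SD below it (54.3% to 54.9% of probes). Kept were probes that exceeded background on the 2 arrays of some group (14466 of 25697; 1719 of all probes have no gene symbol), 1 brightest per gene. A limma fit of 4 group means over 8 arrays (limma 3.58.1, R 4.3.3, variance trend, 4 residual and 9.32 prior degrees of freedom) gave each contrast, with Benjamini-Hochberg adjustment over 9879 genes and a threshold of 0.05. The ± values of log2 changes are standard errors. Fold scales of dim genes depend on the offset. The fit was tested on simulated data. Figures used matplotlib 3.10.9.

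The members and gene lists were chosen with earlier results of these data known. All members are accounted for, with full values for at most the 10 largest changes per contrast and, for the rest of the members, those the text needed. At most 4 genes of each other list are named, by smallest adjusted p, plus Myc. Alternatives were other background settings, probe summaries, filters and centring, a replicate block and leaving out each array. The duplicate numbers were not read as pairs.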

Additional observations from a re-analysis of the deposited data

How the results depend on the processing

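The 29 nucleolar genes with a called IL-4 change kept its direction under the 18 alternatives. Without the background correction the median log2 change with IL-4 was 0.48 in WT, 0.57 in KO and 0.53 on average, and with an offset of 50 it was 0.52 in WT and 0.59 on average. On average over both genotypes it was 0.58 when probes of a gene were averaged and 0.58 without a filter on dim probes. The median KO minus WT difference over both conditions was -0.02 with the mean of probes. Leaving out 1 array gave medians of 0.50 to 0.59 in WT, 0.59 to 0.64 on average, -0.05 to 0.03 for KO against WT with IL-4 and -0.07 to -0.03 for the mean genotype difference. It gave 18 to 25 rising genes in WT, 22 to 29 in KO and 26 to 28 on average, and 0 to 1 lower in KO over both conditions. Over all genes, leaving out 1 array gave 975 to 1582 calls in WT against 1619, 1129 to 1885 in KO against 1898, 293 to 525 for unstimulated KO against WT (517), 257 to 479 with IL-4 (500) and 3 to 10 for the difference between responses (12). Other settings gave 4 to 19 for that difference. With a replicate block the counts of rising nucleolar genes were 25 in WT, 29 in KO and 28 on average, with 1709 and 1946 calls over all genes. Deviations of equally numbered arrays correlated at 0.153 in WT, 0.231 in KO and -0.093 to 0.006 between other groups. Signal over background limits Nolc1, Tsr1 and Rrs1 most.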
